A study of Homo sapiens with 15 samples.

Results

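KB528 inhibits the p300 acetyltransferase, per the labels, and was given at 100 nM for 1 h to RPMI-8226 cells, a line established from a human multiple myeloma. The comparison is with the same cells in DMSO, the solvent control. The genotype field reads WT for the DMSO libraries and repeats the compound's name for the treated ones, and no label gives a genetic change in either group. All cells grew in RPMI medium with serum. Each group held 3 libraries, so the comparison rests on 6 of the 15 libraries of the series, whose other libraries were treated for 3, 6 or 24 h. The genes described are the 12002 of 26364 gene rows whose TPM, averaged across all 15 libraries, reached 1 or more. TPM counts transcripts per 1000000 transcripts, a level already divided by transcript length and library size. No measured difference entered that choice, but a gene near the limit can reach it through the groups where it is high. The DMSO libraries were taken at 1 time, given as 0 h in the series design and headed as no treatment in the table, so handling and time in culture cannot be told apart from KB528. The labels do not state whether the 3 libraries of a group are separate cultures. The p-values then measure only how far these libraries spread, and that spread may be technical.

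p300, encoded by EP300, and its close relative CBP, encoded by CREBBP, transfer acetyl groups to histones at enhancers and promoters and to many transcription factors, among them the RelA subunit of NF-kB. Acetylated histones are read by BET bromodomain proteins, which help to bring the elongation kinase P-TEFb to RNA polymerase II. Myeloma is a cancer of plasma cells, the antibody-secreting cells, and depends on transcription factors such as IRF4, which use this machinery.

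Between 11806 and 12006 genes per library were at 1 TPM or more. Replicates correlated across genes with r from 0.9955 to 0.9978 and libraries of different groups with r from 0.9875 to 0.9916. Total depth is not given. From the steps between low values, 1 read was worth 0.0316 to 0.0465 TPM for a transcript of 1000 bases. External ERCC spike-in RNA took 11.3% to 15.2% of the TPM of a library. Plasma cell markers summed to 7383 to 8435 TPM, while fibroblast and endothelial markers summed to under 1 TPM in each library. B cell markers summed to 4.94 to 6.02 TPM, with CD22 at 0 in all DMSO libraries, T cell markers to 1.59 to 2.30 TPM, erythroid markers to 7.48 to 10.0 TPM and myeloid markers to 49.6 to 60.2 TPM. Epithelial markers summed to 268 to 287 TPM, mainly EPCAM and KRT18, and 0 of the tested markers of these other cell types changed. Without DMSO replicate 1 there was 1 lower epithelial marker, and with median-ratio scaling 1 lower B cell marker. Of the 9 tested plasma cell markers XBP1 rose by 0.20 and MZB1, a chaperone gene of antibody assembly, fell by 0.14 on the log2 scale, a call lost without DMSO replicate 1 or 2 or KB528 replicate 2 or 3. In that list 2 rose without DMSO replicate 1 or 3, and 2 fell without DMSO replicate 3.

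After 1 h 2710 genes (22.6%) passed an adjusted p of 0.05 in limma, which was fitted across all genes on log2(TPM + 1). Of all genes tested, 15% were higher (1802) and 7.57% lower (908). Counts of gene list members given below are to be read beside these shares. The lists were chosen with earlier results of these data known, so their shares are descriptions and not tests. Log2 fold changes are on that scale, which understates the change of low genes. Most changes were small. The median was 0.32 among genes called higher and -0.27 among genes called lower, beside 0.043 over all genes. Of the higher genes 113 rose by at least 1, 10 by at least 2 and 2 by at least 3. Of the lower genes 14 fell by at least 1 and 2 by at least 2. The 3 treated libraries lay above all DMSO libraries for 23.1% of all genes and below them for 13.5%. The balance depended on the scale: median-ratio scaling gave 1852 higher and 1779 lower genes, and a correction for transcript length 1765 and 1670. With median-ratio scaling the lower members went from 4 to 7 among immediate early genes, 2 to 5 in the JAK-STAT list, 3 to 6 in the MYC network, 6 to 11 in oxidative phosphorylation, 1 to 6 in the proteasome, 1 to 3 in the Notch and sterol lists, and 2 to 5 in the TGF-beta list, where the higher went from 3 to 5. The counts also moved with single libraries: 2898 genes were higher without DMSO replicate 3 and 1042 without DMSO replicate 2. Lower genes numbered 531 without DMSO replicate 1 and 560 without KB528 replicate 3, and higher genes 1176 without KB528 replicate 2. In each of the 6 comparisons that left out 1 library, 966 of the higher and 436 of the lower genes were called again. Scaling to the spike-ins, whose factors varied by an SD of 0.20 (log2) among the DMSO libraries, left 348 higher and 123 lower genes. Higher members then went from 5 to 1 among NF-kB subunits and 14 to 1 among snoRNA hosts. They went from 13 to 1 among CLK kinases and SR proteins and 12 to 1 among ER chaperones. Immediate early genes kept 9 of 15 and stress response genes of cell death 7 of 8. Lower mitosis genes went from 10 to 0.

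**Figure D1:**
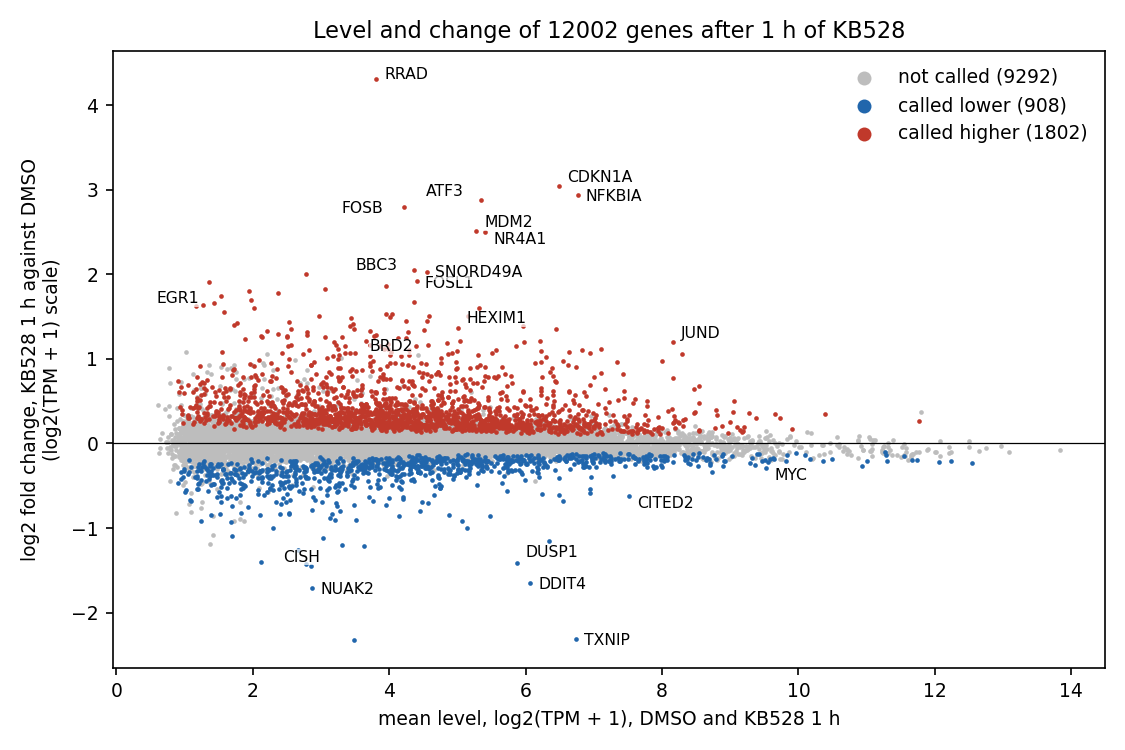
Each point is 1 of 12002 genes, with its mean level in log2(TPM + 1) on the horizontal axis and its log2 fold change after 1 h of KB528 against DMSO on the vertical axis; red genes were called higher and blue genes lower at an adjusted p of 0.05. The 10 genes that rose by at least 2, RRAD and CDKN1A first, lie far above the band of small changes, and TXNIP is the abundant gene that fell the most.

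The 250 bases before the start of 6 genes described below are shown, 4 of them higher (NFKBIA, FOSB, HEXIM1 and JUND) and 2 lower (DUSP1 and TXNIP). They were picked by hand from a larger set of changed genes whose matches were looked at. They do not stand for that set or for the groups described next. The sequences are from RefSeq on GRCh38.p14 and are written on the strand of the gene. Capitals mark matches on either strand to TATAAA (the TATA box), TGACGTCA and its core TGACG (the cyclic AMP response element), CCAAT (the CCAAT box), CACGTG (the E-box) and the NF-kB motif. TGACG lies within TGACGTCA.
NFKBIA: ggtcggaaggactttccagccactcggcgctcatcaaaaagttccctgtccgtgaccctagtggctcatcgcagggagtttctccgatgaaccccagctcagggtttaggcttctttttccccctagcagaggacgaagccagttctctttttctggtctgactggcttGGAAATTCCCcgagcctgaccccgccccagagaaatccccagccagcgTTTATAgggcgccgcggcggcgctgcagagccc
FOSB: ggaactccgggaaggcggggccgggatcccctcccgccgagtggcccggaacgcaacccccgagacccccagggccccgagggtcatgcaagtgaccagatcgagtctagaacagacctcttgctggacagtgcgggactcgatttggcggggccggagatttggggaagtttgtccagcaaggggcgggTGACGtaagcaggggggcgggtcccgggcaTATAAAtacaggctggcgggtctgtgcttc
HEXIM1: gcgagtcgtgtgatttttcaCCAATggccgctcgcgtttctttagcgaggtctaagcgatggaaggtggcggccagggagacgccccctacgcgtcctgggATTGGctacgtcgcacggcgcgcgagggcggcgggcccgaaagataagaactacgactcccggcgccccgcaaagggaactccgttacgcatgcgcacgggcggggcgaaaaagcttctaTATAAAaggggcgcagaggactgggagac
JUND: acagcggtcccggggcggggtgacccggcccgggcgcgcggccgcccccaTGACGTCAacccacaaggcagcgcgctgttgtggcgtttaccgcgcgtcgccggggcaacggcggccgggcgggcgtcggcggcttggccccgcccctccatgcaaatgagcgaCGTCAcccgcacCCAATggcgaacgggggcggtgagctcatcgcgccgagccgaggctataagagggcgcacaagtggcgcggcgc
DUSP1: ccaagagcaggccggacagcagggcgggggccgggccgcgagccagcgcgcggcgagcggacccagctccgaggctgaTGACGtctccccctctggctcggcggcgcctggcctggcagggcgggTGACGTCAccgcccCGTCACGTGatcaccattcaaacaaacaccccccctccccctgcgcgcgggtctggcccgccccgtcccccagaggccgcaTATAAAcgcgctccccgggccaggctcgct
TXNIP: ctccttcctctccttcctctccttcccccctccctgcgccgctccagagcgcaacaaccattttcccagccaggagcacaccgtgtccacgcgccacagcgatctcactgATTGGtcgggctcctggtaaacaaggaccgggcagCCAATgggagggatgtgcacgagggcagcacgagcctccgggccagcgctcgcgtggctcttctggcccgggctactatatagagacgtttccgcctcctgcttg
The windows are chr14:35404750-35404999, minus strand for NFKBIA, chr19:45467746-45467995, plus strand for FOSB, chr17:45148225-45148474, plus strand for HEXIM1, chr19:18281623-18281872, minus strand for JUND, chr5:172771196-172771445, minus strand for DUSP1 and chr1:145996580-145996829, minus strand for TXNIP. Counted back from the start, TATA matches begin at base -33 in NFKBIA, -30 in FOSB, -29 in HEXIM1 and -30 in DUSP1. NFKBIA holds an NF-kB motif at -81, FOSB a TGACG at -60, JUND a full TGACGTCA at -200 and DUSP1 one at -125. A match describes letters and does not show that a factor binds.

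A TATAAA was found in a 300-base window (250 before to 50 after the start) of 9 of 36 genes (25%) that rose by at least 1, namely NFKBIA, FOSB, NFKBIZ, TNFSF9, HEXIM1, ZC3H12A, KLHL15, NXF1 and JUNB. It was found in 15.5% of 187 genes that rose by 0.5 to 1, in 7.64% of those that rose by less, in 4.60% of uncalled genes, in 3.87% of those that fell by less than 0.5 and in 8.24% of 85 genes that fell by at least 0.5. All tested genes together had 5.24%, and all RefSeq promoters 12%. CCGGAAG, the motif of ETS factors, was in 1 of the 36 genes that rose by at least 1 (2.78%), in 16% of those that rose by 0.5 to 1 and in 24.4% of those that rose by less. It was in 21.3% of uncalled genes, 21.8% of genes that fell by less than 0.5 and 8.24% of those that fell by more. TGACG stood in 44.4% of the genes that rose by at least 1, 35.9% of all tested genes and 18.8% of those that fell by at least 0.5. Promoters were found for 9282 of 11608 tested genes that are not small RNA genes, and RRAD and PHLDA3 were not among them. These shares are descriptions without a test.

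Among protein-coding genes, the median genomic span was 10180 bases for the 44 that rose by at least 1 and 8017 bases for the 90 that fell by at least 0.5, beside 32498 bases for uncalled genes. At most 3 exons were annotated for 31.8% and 44.9% of them, beside 10.8% of uncalled genes. The genes called lower by less than 0.5 had a median span of 11855 bases, and those called higher by less than 0.5 of 30162 bases.

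Genes listed here under the DNA damage and stress response, which halt the cell cycle, start cell death or repair damage, included the 2 largest increases. Membership rests on known roles of the genes, and DNA damage itself was not measured. RRAD, which encodes a small GTPase, measured 0.282, 0.274 and 0.450 TPM in the DMSO libraries and 28.3, 26.3 and 22.3 TPM after 1 h. It went from near silence, about 13 to 19 reads per library, to about 751 to 1138 reads, with a log2 fold change of 4.31 (SE 0.099) and an adjusted p of 8.17e-14. CDKN1A, which encodes the cell cycle inhibitor p21, went from 17, 17.04 and 21.3 to 156, 157 and 163 TPM, 8.61-fold on the TPM scale, and its groups lay far apart. MDM2 encodes a ubiquitin ligase. It measured 11.0, 9.63 and 11.3 TPM without and 63.8, 65.0 and 66.6 TPM with KB528, a log2 fold change of 2.51 (SE 0.056) (adjusted p = 8e-14). PHLDA3, an inhibitor of AKT signalling, was at 0.111, 0.0772 and 0.0522 TPM in DMSO, 4 to 8 reads, and at 3.72, 3.03 and 2.48 TPM at 1 h.

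Among the genes listed under arrest in this response 8 of 12 rose and 4 fell (beside 15% and 7.57% of all genes), with a median of 0.26. The rising members beside CDKN1A included the kinase gene PLK3 (1.15), the phosphatase gene PPM1D (0.85), and SESN2, an inhibitor of mTOR signalling (0.91). BTG2, an antiproliferative gene that is also an early response gene, fell from 109, 104 and 129 to 71.8, 70.1 and 69.5 TPM. GADD45A, CCNG2 and SFN fell by 0.34, 0.30 and 0.20, the last of which lost its call without DMSO replicate 1 or KB528 replicate 1 or 3. The genes of this list thus moved in both directions.

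Of 14 stress response genes linked to cell death, 8 rose and 1 fell, also in each of the 6 comparisons that left out a library, with a median of 0.45. BBC3 encodes PUMA, a BH3-only protein that starts apoptosis, and measured 7.49, 5.85 and 7.52 TPM in DMSO and 34.7, 36.5 and 25.5 TPM at 1 h (4.64-fold). KB528 replicate 3 was the lowest treated library and still above every DMSO library. TNFRSF10B, a death receptor gene, went from 5.76, 4.98 and 6.32 to 23.2, 23.1 and 23.4 TPM, a log2 fold change of 1.86 (SE 0.068). TNFRSF10D, which encodes a decoy receptor, rose by 1.20, PMAIP1, the gene of NOXA, by 0.78, and FAS by 0.67. BAK1, a pore-forming member of the BCL2 family, fell by 0.24, and BAX did not pass the test (-0.02). In the third list of the response (feedback, repair and metabolism) 9 of 16 rose and 2 fell, among them TP53INP1, from 7.90, 6.46 and 8.10 to 21.7, 24.2 and 22.5 TPM, and the metabolic phosphatase gene TIGAR by 1.16. SCO2 and TNFAIP8 fell by 0.15 and 0.27, but SCO2 lost its call without DMSO replicate 2 or KB528 replicate 2 or 3 and TNFAIP8 without DMSO replicate 1.

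Within the BCL2 family 6 of 16 rose and 2 fell, on both sides of the balance between death and survival. MCL1, the survival protein on which myeloma cells lean, went from 101, 86.6 and 106 to 175, 178 and 171 TPM. BCL2L11, which encodes the pro-death protein BIM, went from 26.6, 22.9 and 30.8 to 50.8, 51.9 and 52.1 TPM. BMF, another BH3-only gene, fell by 0.43, and BCL2 was at 0.25 (adjusted p = 0.0592).

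**Figure D2:**
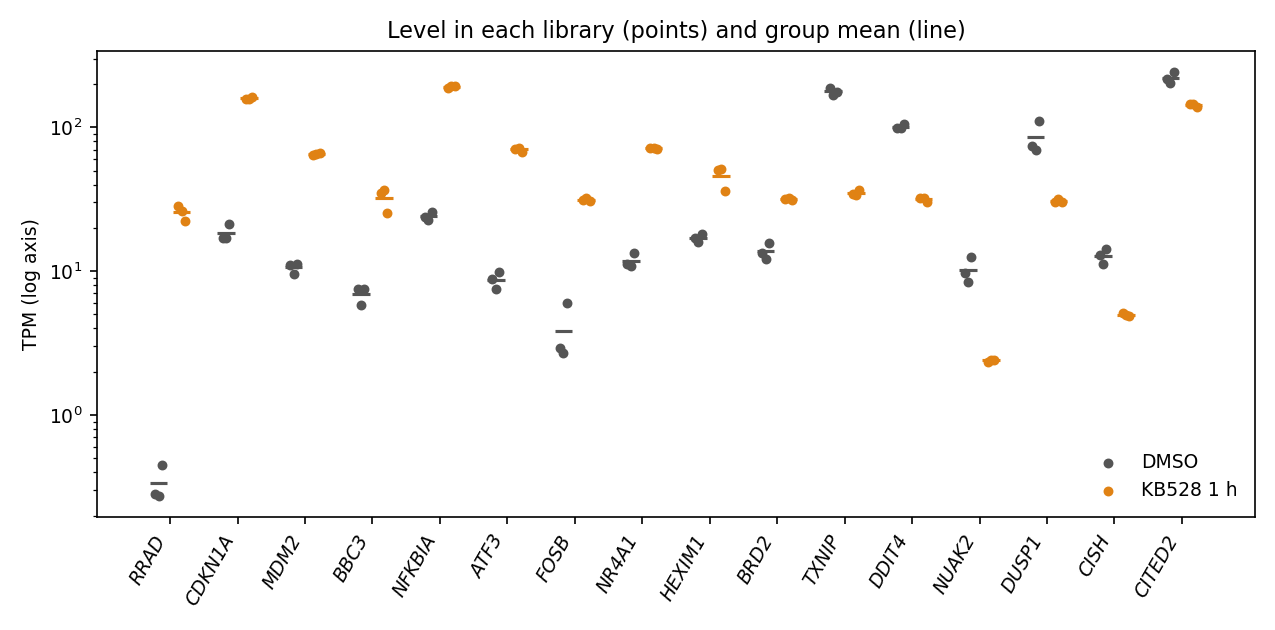
TPM on a log axis for 16 genes, with each library as a point, DMSO in grey and KB528 at 1 h in orange, and the group mean as a line. The 10 genes on the left, RRAD to BRD2, are higher in every treated library than in any DMSO library, and the 6 on the right, TXNIP to CITED2, are lower in every one.

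AP-1 is built from FOS and JUN family proteins, whose genes are read out within minutes of a stimulus. Of 22 AP-1 and ATF genes 9 rose and 3 fell, with a median of 0.07, so the family split. FOSB measured 2.93, 2.71 and 5.97 TPM in DMSO, with replicate 3 the highest, and 31.3, 32.3 and 30.8 TPM at 1 h (2.80 (SE 0.18)). FOSL1, which encodes FRA-1, went from 7.21, 7.17 and 9.34 to 32.6, 33.1 and 31.6 TPM, and ATF3, a stress-induced repressor, from 8.84, 7.48 and 9.91 to 71.1, 71.9 and 67.7 TPM (8.03-fold). FOS, the founding member, went the other way, from 38.6, 35.0 and 55.8 TPM in DMSO to 21.9, 23.1 and 20.7 TPM at 1 h (-0.92 (SE 0.13), adjusted p = 0.000114).

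All 3 JUN genes rose. JUND, the most abundant of them in TPM, went from 172, 157 and 187 to 391, 409 and 388 TPM, JUNB from 61.3, 60.1 and 66.3 to 134, 138 and 129.9 TPM, and JUN by 0.60 on the log2 scale. FOSL2 rose by 0.63. MAFG, a small MAF gene, and DBP, a clock output gene, fell by 0.37 and 0.29.

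Other immediate early genes rose more often than they fell: 15 of 28 were higher and 4 lower, with a median of 0.36. NR4A1, which encodes an orphan nuclear receptor, went from 11.1, 10.9 and 13.4 to 71.3, 71.8 and 71.0 TPM (2.50 (SE 0.082)). Its relative NR4A2 rose by 1.35. EGR1, a zinc finger factor, remained low in absolute terms, at 0.266, 0.278 and 0.376 TPM in DMSO and 3.34, 2.86 and 3.17 TPM at 1 h. IER2 and IER5 rose by 0.97 and 0.63 and SRF, the factor that drives many of these genes, by 0.58. NAB2, a corepressor of EGR factors, fell by 0.72 and the stress gene GADD45G by 0.83, while ZFP36, a decay factor gene, was at 0.14 without passing the test.

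The Kruppel-like factors showed no common direction, with 3 of 15 higher and 3 lower, 5 higher without DMSO replicate 3 and 1 lower without DMSO replicate 1. KLF5 and KLF6 rose by 0.72 and 0.53, and SP2 by 0.37, a call lost without DMSO replicate 1 or 2 or KB528 replicate 3. KLF10, a TGF-beta-responsive repressor, fell from 28.2, 25.7 and 35.1 to 18.0, 19.2 and 19.5 TPM. KLF15 and KLF3 fell by 0.27 and 0.25. KLF15 lost its call without DMSO replicate 1, and KLF3 without each library but DMSO replicate 2.

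Genes that restrain MAP kinase signalling also split, with 10 of 18 higher and 4 lower. The 4 that fell were lower in every comparison that left out a library, whereas the 10 became 4 without KB528 replicate 1, 5 without DMSO replicate 2 and 6 without KB528 replicate 2 or 3. DUSP1, a nuclear phosphatase of p38 and JNK, measured 73.7, 70.0 and 111 TPM in DMSO and 30.2, 31.5 and 30.1 TPM at 1 h (-1.41 (SE 0.12)). DUSP6, the cytoplasmic phosphatase of ERK, went from 10.1, 8.97 and 11.5 to 4.33, 4.25 and 3.84 TPM, DUSP5 from 146, 134 and 155 to 98.6, 100.3 and 99.8 TPM, and SPRY1 by -0.92. DUSP2, DUSP8 and DUSP10 rose by 0.53, 0.64 and 0.55, and PHLDA1 by 0.88.

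Feedback inhibitors of cytokine signalling were divided too. CISH, a target of STAT5, fell from 12.96, 11.2 and 14.3 to 5.09, 4.99 and 4.90 TPM (-1.20 (SE 0.089)). SOCS1, a direct inhibitor of JAK kinases, rose from 3.68, 3.05 and 3.79 to 8.80, 8.29 and 9.03 TPM, and SOCS3 fell by 0.47, a call lost without KB528 replicate 3. In the whole list 7 of 23 rose and 2 fell, and without DMSO replicate 2 there were 4 higher and without KB528 replicate 3 there was 1 lower. BCL6 and BCL3 rose by 0.69 and 0.42, the kinase gene PIM3 by 0.22 and STAT3 by 0.27, the last lost without DMSO replicate 2.

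NF-kB is held in the cytoplasm by inhibitors whose genes it switches on itself. NFKBIA, which encodes the inhibitor IkB-alpha, measured 23.8, 22.7 and 25.7 TPM in DMSO and 188, 193 and 192 TPM at 1 h. That is 7.95-fold, with a log2 fold change of 2.94 (SE 0.052) and the smallest adjusted p of all genes named (6.79e-15). NFKBIZ, a nuclear relative, went from 1.42, 1.04 and 1.57 to 7.26, 7.04 and 6.74 TPM, and TNFAIP3, which encodes the ubiquitin-editing enzyme A20, from 1.58, 1.51 and 1.85 to 5.72, 5.75 and 5.41 TPM. Of 24 inhibitors and regulators 9 rose and 0 fell, with 5 higher without KB528 replicate 2 and 1 lower without DMSO replicate 2, while with median-ratio scaling 4 fell. NFKBIE did not pass the test (-0.12), and TRAF4 rose by 0.40.

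All 5 subunit genes were called higher, but by less. NFKB2 rose from 19.4, 19.3 and 21.6 to 31.5, 31.6 and 27.9 TPM and RELB from 6.67, 5.69 and 5.75 to 10.9, 11.5 and 11.0 TPM. NFKB1, REL and RELA rose by 0.22, 0.39 and 0.28, and these 3 calls were lost without any 1 library except DMSO replicate 3. Of 13 effector genes of the pathway 8 rose and 1 fell. TNFSF9, a costimulatory ligand, went from 2.07, 2.04 and 2.26 to 7.08, 7.19 and 8.11 TPM, and CD83, CXCL10, PLAU and ICAM1 rose by 0.86, 0.77, 0.61 and 0.36. IRF1, an interferon regulatory factor, fell by 0.37.

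**Figure D3:**
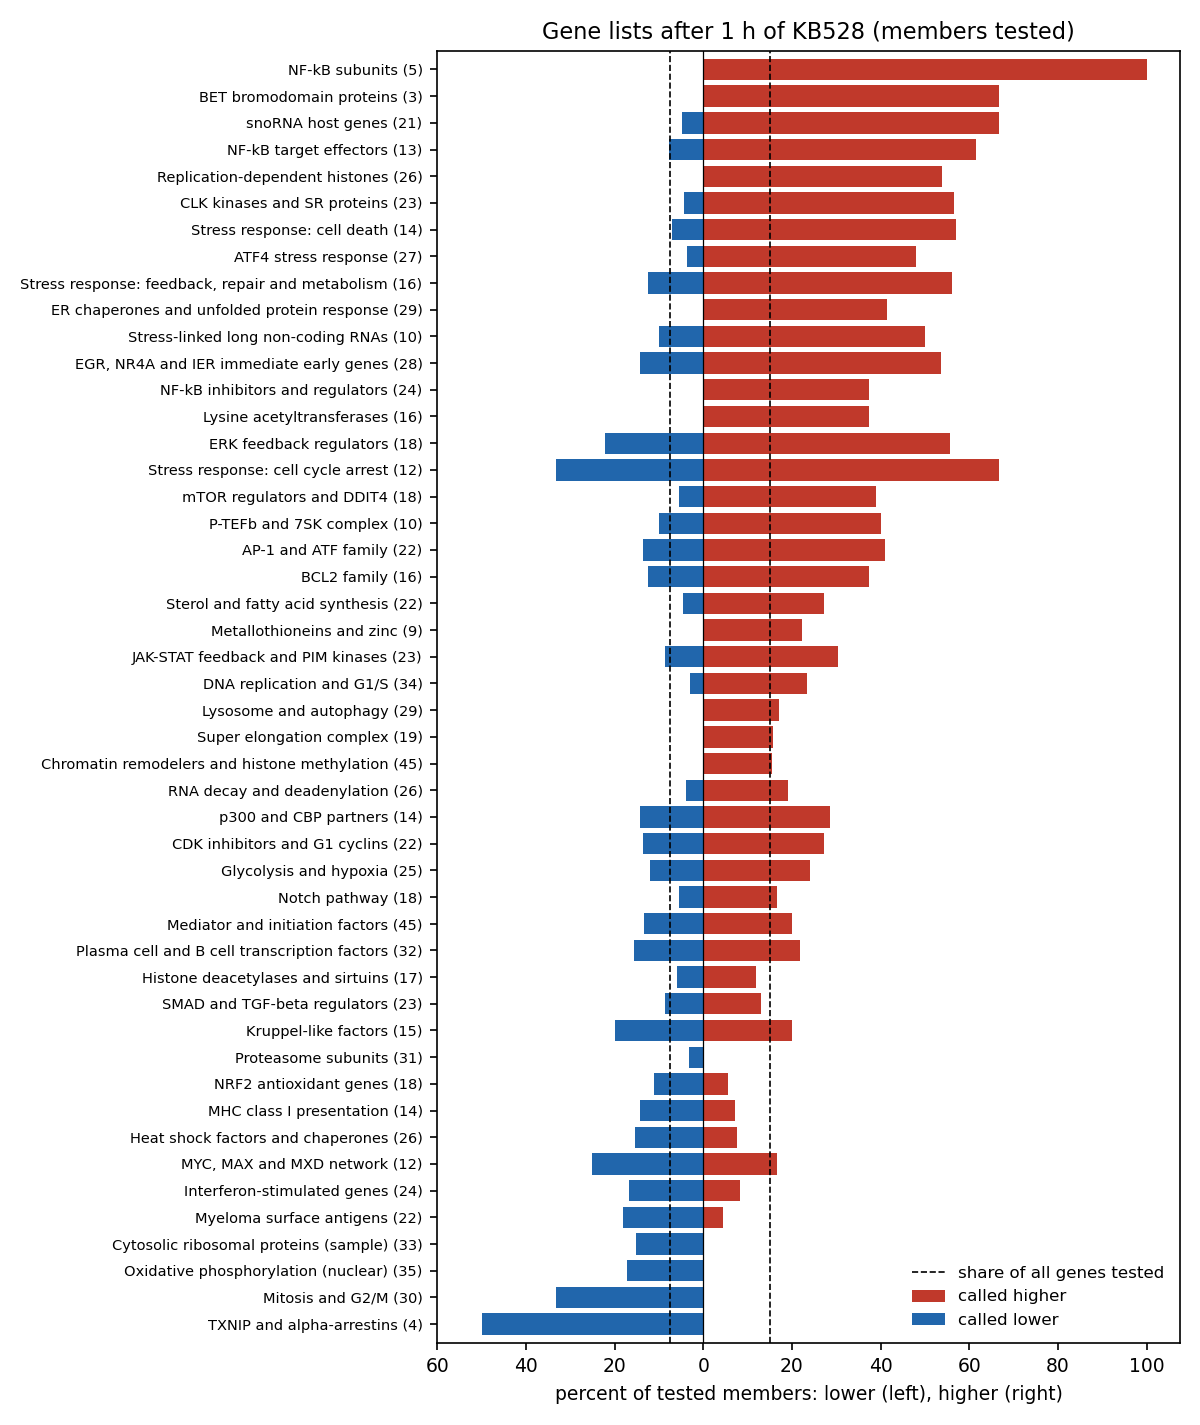
Bars give the percent of tested members of each gene list called higher (red, to the right) or lower (blue, to the left), with the number of tested members in brackets and dashed lines at the shares over all genes tested, 15% higher and 7.57% lower. NF-kB subunits, snoRNA hosts, immediate early genes and stress response genes reach far beyond the right line, while mitosis, oxidative phosphorylation and ribosomal protein genes have 0 members called higher. With spike-in scaling, not drawn here, 1 NF-kB subunit and 1 snoRNA host were called higher. The lists were chosen with earlier results of these data known, so distance from the lines is a description and not a test.

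TXNIP led the decreases among protein-coding genes. It encodes thioredoxin-interacting protein, an arrestin-like protein that restrains glucose uptake, and it measured 188, 168 and 176 TPM in DMSO and 34.1, 34.0 and 36.5 TPM at 1 h. The DMSO mean was 5.08 times the 1 h mean, with a log2 fold change of -2.31 (SE 0.045) and an adjusted p of 1.55e-14. Its relative ARRDC3 fell from 31.4, 24.3 and 30.3 to 16.7, 17.6 and 16.98 TPM, while ARRDC1 and ARRDC2 did not pass the test (-0.08 and 0.12). DDIT4, which encodes REDD1, an inhibitor of mTOR signalling, went from 99.5, 98.4 and 105 to 32.1, 32.4 and 30.1 TPM (-1.65 (SE 0.049)). Elsewhere in the mTOR list 7 of 18 rose, among them TSC22D3 (0.80), TSC22D2 (0.45) and FNIP1 (0.35), and DDIT4 was the 1 that fell.

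NUAK2, which encodes a kinase related to AMPK, went from 9.71, 8.46 and 12.5 to 2.36, 2.42 and 2.42 TPM and was lower in each treated library. RAB3A, a GTPase gene of vesicle release, went from 8.91, 9.14 and 10.7 to 2.48, 3.12 and 3.05 TPM, and ZNF217, a transcriptional repressor gene, from 16.9, 13.5 and 18.9 to 6.02, 6.71 and 6.67 TPM. SSTR3, a somatostatin receptor gene, fell from 45.7, 42.9 and 49.0 to 23.7, 24.1 and 19.95 TPM. ZNF691, RTP4, PHF23, MID1IP1 and MYLIP fell by 0.91, 0.88, 0.86, 0.85 and 0.85. Among genes of 100 TPM and more the decreases were smaller: PPP1R35 fell by 0.59, KRT16 by 0.40, EXOSC4 by 0.39, ATP5I by 0.33 and ARHGEF2 by 0.30. ATP5I lost its call without DMSO replicate 2 and ARHGEF2 without KB528 replicate 3.

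Of the proteins that dock on p300 and CBP, 4 of 14 genes rose, 1 without DMSO replicate 2, and 2 fell. CITED2, whose product competes for a docking domain of p300, went from 218, 202 and 242 to 146, 145 and 139 TPM (-0.62 (SE 0.056), adjusted p = 1.19e-06). The related genes SERTAD3 and SERTAD1 moved apart: SERTAD3 fell from 7.45, 8.14 and 8.21 to 2.35, 3.33 and 2.62 TPM and SERTAD1 rose from 14.9, 14.6 and 12.9 to 27.4, 29.6 and 27.9 TPM. EPAS1, the gene of HIF-2-alpha, rose by 0.34 and CRTC1 by 0.35. EPAS1 lost its call without DMSO replicate 2, and CRTC1 without DMSO replicate 1 or 2 or KB528 replicate 1 or 2.

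The targeted enzyme's own gene was called higher, but the call was not stable. EP300 measured 21.5, 17.4 and 27.3 TPM in DMSO and 30.6, 30.2 and 29.8 TPM at 1 h (0.46 (SE 0.14), adjusted p = 0.0304), and CREBBP 16.1, 13.5 and 20.2 and 22.1, 22.6 and 21.4 TPM (0.41 (SE 0.13), adjusted p = 0.0416). Both calls were lost on leaving out any 1 library except DMSO replicate 3. KB528 acts on the protein, so these levels do not check the labels. Of 16 genes listed as acetyltransferases 6 rose and 0 fell. That count was 1 without DMSO replicate 2 or KB528 replicate 1 or 2, 2 without DMSO replicate 1, 3 without KB528 replicate 3 and 10 without DMSO replicate 3. Of the listed genes CDYL rose by 0.27, a call kept in all 6 comparisons that left out a library. KAT2A and NCOA3 rose by 0.23 and 0.30, calls that were not kept in all of them. KAT6A and KAT2B did not pass the test (0.19 and 0.01). Among 17 deacetylases and sirtuins SIRT1 rose by 0.58 in every such comparison, while HDAC4 (0.34) and SIRT6 (-0.16) lost their calls in most of them. In that list 2 rose and 1 fell, and 4 rose without DMSO replicate 3.

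HEXIM1 holds P-TEFb inactive in the 7SK complex. It measured 16.9, 15.9 and 18.0 TPM in DMSO and 50.1, 51.1 and 36.2 TPM at 1 h (1.37 (SE 0.10)), and the lowest treated library was still above the DMSO libraries. Its paralog HEXIM2 fell from 5.35, 5.12 and 5.28 to 3.24, 4.202 and 3.13 TPM. MEPCE, which caps 7SK RNA, rose by 0.46, whereas CDK9, CCNT1 and LARP7 did not pass the test (-0.05, 0.11 and 0.04). In all 4 of 10 P-TEFb genes rose, among them CCNT2 (0.24) and CCNK (0.32), and 2 without DMSO replicate 2 or KB528 replicate 1 or 2. BRD2, a BET gene, went from 13.4, 12.1 and 15.7 to 31.9, 32.2 and 31.4 TPM. Its relative BRD3 was at -0.09 and did not pass the test.

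In the super elongation complex list 3 of 19 rose, a share near that of all genes, or 8 without DMSO replicate 3. EAF1 rose by 0.47, ELL2, an elongation factor that plasma cells use, by 0.31 and SUPT6H by 0.28, the last lost in 4 of the 6 comparisons that left out a library. Of 45 Mediator and initiation factor genes 9 rose and 6 fell. Without DMSO replicate 2 there were 5 higher, and 15 without DMSO replicate 3. MED13L, MED26, MED6 and GTF2B rose by 0.54, 0.32, 0.27 and 0.35, and MED7, MED31, MED18 and GTF2E1 fell by 0.52, 0.36, 0.35 and 0.29. Of 45 chromatin remodeling and histone methylation genes 7 rose (15.6%, near the 15% of all genes) and 0 fell. The higher count ran from 2 without DMSO replicate 2 to 24 without DMSO replicate 3. KDM6B, a histone demethylase gene, rose from 4.25, 3.51 and 5.34 to 7.56, 7.52 and 7.23 TPM, KDM2A by 0.54, and INO80 and EZH2 by 0.29 and 0.17, both lost without DMSO replicate 2.

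Of 32 plasma cell and B cell transcription factor genes 7 rose and 5 fell (21.9% and 15.6%, beside 15% and 7.57% of all genes), and 3 fell without DMSO replicate 1 or 3 or KB528 replicate 3. IRF4, the factor in the series title, measured 90.5, 81.7 and 103 TPM in DMSO and 107, 107 and 104 TPM at 1 h, so that its treated libraries lay above the DMSO libraries without passing the test (0.21 (SE 0.075), adjusted p = 0.0534). It passed under 7 of the 17 alternatives, among them median-ratio scaling (adjusted p = 0.0317) and the fit without DMSO replicate 3 (adjusted p = 0.00569). MYC fell from 799, 741 and 883 to 662, 666 and 653 TPM (-0.29 (SE 0.059), adjusted p = 0.00274), a small part of its level. MAF measured 403, 364 and 442 and 358, 360.5 and 289 TPM (-0.26 (SE 0.090), adjusted p = 0.0450), and its call was lost without DMSO replicate 1 or 3 or KB528 replicate 3. PRDM1, IKZF1, IKZF3, POU2AF1 and MEF2C did not pass the test, at -0.18, -0.02, 0.10, 0.12 and 0.04.

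RUNX1 went from 14.8, 12.9 and 16.99 to 23.7, 24.99 and 24.5 TPM and RUNX3 rose by 0.42. BCL6, a germinal centre repressor that plasma cells silence, was low, at 0.594, 0.509 and 0.668 TPM in DMSO and 1.496, 1.57 and 1.65 TPM at 1 h. BCL11A fell by 0.40 and IRF2 by 0.19, the latter lost without each library but DMSO replicate 2. In the MYC network MXD1, a MYC antagonist, went from 4.79, 4.22 and 5.16 to 15.4, 14.6 and 14.8 TPM, the largest change of 12 tested genes, of which 2 rose and 3 fell. MNT rose by 0.43, a call lost without DMSO replicate 2, and MLX and MYCL fell by 0.20 and 0.33. MLX lost its call without KB528 replicate 3 and MYCL, whose groups overlapped, without DMSO replicate 1 or 3 or KB528 replicate 2 or 3. In this list 1 gene was higher without DMSO replicate 2 and 1 lower without KB528 replicate 3.

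Of 22 surface antigens of myeloma 1 rose and 4 fell, with 2 higher without DMSO replicate 1 or 3. CXCR4, the chemokine receptor that holds plasma cells in bone marrow, went from 62.3, 60.7 and 63.3 to 41.7, 41.7 and 42.0 TPM and CCR1 from 92.6, 85.2 and 92.8 to 59.2, 60.4 and 57.6 TPM. CCR2 fell by 0.40 and IGF1R rose by 0.45. TNFRSF17, the gene of BCMA, was at 0.18 (adjusted p = 0.0535) and SDC1, the gene of CD138, at -0.02 (adjusted p = 0.809), neither of which passed the test. Among cell cycle entry genes CCND2, a cyclin D gene, went from 154, 141 and 165 to 191, 194 and 193 TPM, E2F1 rose by 0.37, and CDKN1B and MYB fell by 0.39 and 0.22. In that list 6 of 22 rose and 3 fell, and without DMSO replicate 2 or KB528 replicate 2 there were 3 higher and without DMSO replicate 1 there was 1 lower. CDKN2B rose by 0.42 and CDKN2A fell by 0.18, both lost without 1 of 2 libraries (DMSO replicate 2 and KB528 replicate 2 for CDKN2B, DMSO replicate 1 and KB528 replicate 3 for CDKN2A), and MYB was lost without DMSO replicate 1 or KB528 replicate 1.

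Of 27 genes of the ATF4 response, which follows shortage of amino acids and ER stress, 13 rose and 1 fell (48.1% and 3.70%), with a median of 0.11. With median-ratio scaling there were 11 and 6, and after the length correction 12 and 5. ATF4 went from 461, 449 and 460.5 to 591, 593 and 585 TPM, DDIT3, the gene of CHOP, from 10.3, 9.51 and 9.86 to 19.9, 18.6 and 20 TPM, and ATF5 and CHAC1 rose by 0.70 and 0.84. ASNS, a standard ATF4 target, did not pass the test (0.07), and SLC7A11 rose by 0.45. TRIB3 fell by 0.19, a call lost without DMSO replicate 3 or KB528 replicate 1 or 2. Of 29 ER chaperone and unfolded protein response genes 12 rose and 0 fell, and without DMSO replicate 2 or KB528 replicate 2 there were 7 higher and without DMSO replicate 3 there was 1 lower. DNAJB9 measured 30.3, 25.5 and 29.4 TPM in DMSO and 59.6, 62.3 and 59.7 TPM at 1 h, and HERPUD1, a factor in ER-associated degradation, 273, 261 and 291 and 432, 431 and 427 TPM. HSPA5, the gene of the chaperone BiP, rose by 0.35 and the sensor kinase gene EIF2AK3 by 0.38.

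The heat shock list had 26 tested genes, of which 2 rose and 4 fell (DNAJB1 by 0.19 and SERPINH1 by -0.29), and 2 fell without any 1 library except DMSO replicate 2. The count of lower genes was 9 with median-ratio scaling and 8 after the length correction, and 1 rose without DMSO replicate 2 or KB528 replicate 2 or 3. HSPA1A and HSPA1B, a near-identical pair, did not pass the test (-0.07 and -0.00). Of 18 NRF2 genes 1 rose and 2 fell, with HMOX1 at -0.19 and NFE2L2 at -0.21, and without DMSO replicate 3 there were 2 and 5. The zinc sensor gene MTF1 and the zinc exporter gene SLC30A1 rose by 0.55 and 0.71, the 2 called of 9 metallothionein and zinc genes. Of 24 interferon-stimulated genes 2 rose and 4 fell, with 2 lower without DMSO replicate 1 or 2, and 1 higher and 1 lower without KB528 replicate 3. IFIT5 went from 3.67, 3.36 and 3.65 to 1.42, 1.65 and 1.67 TPM, IRF7 rose by 0.29, and OAS1, ISG15 and BST2 fell by 0.27, 0.27 and 0.14. OAS1 lost its call without KB528 replicate 3, as did IFIT3 (0.30), and ISG15 and BST2 were each lost in 4 of the 6. Among 14 MHC class I genes 1 rose and 2 fell by less than 0.2 (HLA-E, PSMB9 and PSMB10), all lost without DMSO replicate 1 or 2. In that list 2 rose without DMSO replicate 3, 0 rose and 1 fell without KB528 replicate 1 or 2, and 1 fell without KB528 replicate 3.

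In the TGF-beta list the shares that rose and fell were near those of all genes (13% and 8.7%, beside 15% and 7.57%). SMAD7, an inhibitor of the pathway, fell from 10.2, 9.89 and 11.3 to 6.03, 5.53 and 4.80 TPM and TGIF1, a corepressor, from 4.74, 4.04 and 4.83 to 2.16, 2.06 and 1.98 TPM. TGFBR1 rose by 0.37, and SKIL by 0.26, lost without DMSO replicate 2 or KB528 replicate 2 or 3. Of 23 genes 3 rose and 2 fell, with 7 higher without DMSO replicate 3. Of 18 Notch genes 3 rose and 1 fell (16.7% and 5.56%), also near the shares of all genes, with 6 higher without DMSO replicate 3. NOTCH1 rose by 0.67, NRARP by 0.51 and MAML1 by 0.33, the last lost in 4 of the 6, and HEY1 fell by 0.36.

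RNA processing genes were among those that rose. Of 23 CLK kinase and SR protein genes, which control splicing, 13 rose and 1 fell (56.5% and 4.35%). SRSF6 measured 80.8, 69.8 and 84.5 TPM in DMSO and 167, 166 and 163 TPM at 1 h (1.07 (SE 0.056)), DYRK1A rose from 10.8, 8.62 and 11.0 to 15.5, 16.0 and 16.3 TPM, TRA2A by 0.44 and RBM39 by 0.34, and CLK3 fell by 0.27. Of 26 RNA decay genes 5 rose and 1 fell (19.2% and 3.85%, beside 15% and 7.57% of all genes). There were 3 higher without DMSO replicate 2 and 11 without DMSO replicate 3. DCP1A, a decapping factor gene, rose by 0.52, PELO by 0.27, ZFP36L1 by 0.45 and CNOT7 by 0.17, and the decapping enzyme gene DCP2 fell by 0.27. ZFP36L1 lost its call without DMSO replicate 2 and CNOT7 without KB528 replicate 2 or 3.

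Host genes of small nucleolar RNAs carry in their introns the snoRNAs that guide the modification of ribosomal RNA. Of 21 hosts listed 14 rose and 1 fell, with a median of 0.36. SNHG12 went from 90.3, 86.5 and 82.3 to 187, 178 and 198 TPM, SNHG1 from 296, 279 and 281 to 460.1, 463 and 447 TPM, SNHG3 from 132, 135 and 143 to 207, 208 and 214 TPM and GAS5 from 308, 315 and 307 to 428, 431 and 439 TPM, while SNHG20 fell by 0.36. Of the snoRNA genes themselves 121 of 183 were higher (66.1%) and 1 lower (0.546%), with a median of 0.76. Of C/D box genes 76 of 113 rose (67.3%), and of H/ACA box genes 45 of 70 (64.3%). SNORD49A went from 9.78, 8.33 and 6.75 to 32.4, 37.3 and 40.0 TPM, SNORD11 from 2.48, 1.48 and 1.32 to 11.0, 9.06 and 9.80 TPM and SNORA16A from 21.5, 16.3 and 18.7 to 52.4, 58.2 and 66.6 TPM.

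These values rest on few reads, about 13 to 20 per DMSO library for SNORD49A, 3 to 6 for SNORD11 and 67 to 82 for SNORA16A. Libraries of polyadenylated RNA hold little mature snoRNA, and reads of a snoRNA and of the unspliced intron that holds it cannot be told apart. Of 161 snoRNA and Cajal body RNA genes inside a tested gene on the same strand, 103 were higher, 58 of them with a host that was also called higher. Among the 58 that were not called higher, 18 had a host that was. All 161 together had a median log2 fold change of 0.75 and their 89 hosts of 0.047, and 144 of the 161 lay above their host, a description without a test. SNORA76C and SNORD104, held by the same host SNHG25, parted: SNORA76C fell from 115, 106 and 111 to 54.5, 42.0 and 51.6 TPM, and SNORD104 rose from 209, 205 and 191 to 435, 431 and 402 TPM. SNORD22, SNORD31 and SNORD110 rose by 1.10, 0.98 and 0.96, and SNORA44 in SNHG12 by 1.51. SNORD37, at 5.79, 1.41 and 2.79 TPM in DMSO and 11.0, 11.0 and 9.01 TPM at 1 h, lost its call in 4 of the 6 comparisons that left out a library. RNU4ATAC, the minor spliceosome RNA gene, was under 1 TPM in each DMSO library (0.802, 0.718 and 0.567) and above 3 TPM in each treated one (3.84, 6.69 and 4.58). These levels rest on about 2 to 3 reads per DMSO library and 13 to 24 per treated one. RRAD was the other gene with this pattern, and 0 genes showed the reverse.

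**Figure D4:**
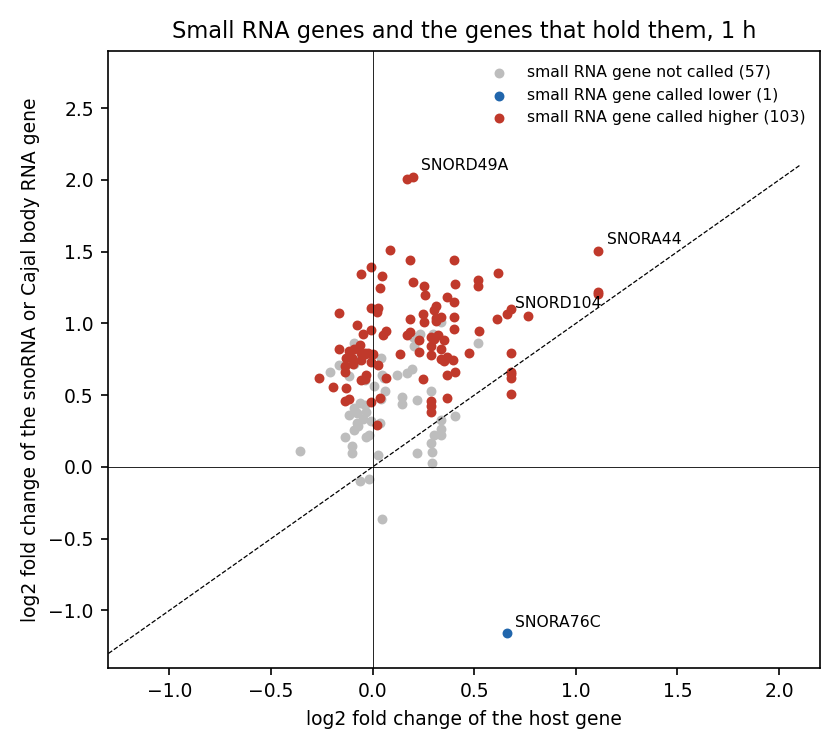
Each point is 1 of 161 small nucleolar or Cajal body RNA genes inside a tested host gene, with the log2 fold change of the host on the horizontal axis and of the small RNA gene on the vertical axis, and the dashed line marks equal change. Of the 161 genes 144 lie above the line, 103 genes were called higher (red), and SNORA76C is the 1 called lower (blue).

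The miRNA genes measured in this assay are read from precursors or host introns, not from mature miRNAs. Of 194 such genes 38 rose and 5 fell (19.6% and 2.58%, beside 15% and 7.57% of all genes). MIR93 measured 7.81, 8.95 and 9.68 TPM in DMSO and 31.2, 26.7 and 33.2 TPM at 1 h, and MIR25 and MIR106B, which lie with it in an intron of MCM7, rose as well (0.90 and 1.31), while MCM7 was at 0.085 and did not pass the test. MIRLET7D rose from 6.79, 6.08 and 8.05 to 22.5, 21.7 and 21.6 TPM. MIR6510, in KRT15, went from 16.7, 14.4 and 21.2 to 4.97, 2.01 and 1.69 TPM, the latter 2 to 7 reads per library, and MIR1908, in FADS1, from 9.55, 5.45 and 11.98 to 2.88, 1.36 and 4.003 TPM. These short genes are uncertain, since 1 read moves them by a large part of their level.

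Of 514 long non-coding RNA genes 62 rose and 60 fell (12.1% and 11.7%). MIR663AHG went from 2.98, 2.9 and 3.04 to 9.62, 8.88 and 8.22 TPM, MIR22HG from 1.43, 1.33 and 1.93 to 5.40, 4.97 and 5.07 TPM and LINC01004 from 1.34, 1.51 and 1.99 to 5.01, 5.10 and 5.49 TPM. MIR17HG, the host of an oncogenic miRNA cluster, rose from 12.1, 10.7 and 14.2 to 24.4, 23.3 and 25.04 TPM, LINC00641 by 0.92 and LINC00657 (NORAD) by 0.34. NEAT1, the scaffold of paraspeckles, fell from 98.6, 91.0 and 115 to 82.2, 79.6 and 66.3 TPM, a call lost without KB528 replicate 3. LINC01424, LINC00939, LINC00957, ST3GAL4-AS1, MFI2-AS1 and CAHM fell by 0.82, 0.74, 0.73, 0.70, 0.67 and 0.63. AMIGO3 and RNF19B were also among the 20 largest increases: AMIGO3, a cell adhesion gene, went from 7.11, 6.34 and 9.13 to 22.7, 23.5 and 23.9 TPM and RNF19B, a ubiquitin ligase gene, from 11.95, 11.0 and 11.4 to 34.4, 33.6 and 35.1 TPM.

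Replication-dependent histone genes have transcripts that mostly lack a poly(A) tail, and their near-identical copies can share reads, so their values are uncertain. Of 26 tested 14 rose and 0 fell, with a median of 0.30. HIST1H4C went from 4.63, 5.83 and 5.48 to 13.6, 15.1 and 16.7 TPM, HIST3H2A from 25.8, 30.2 and 29.7 to 54.5, 55.1 and 53.1 TPM, and HIST1H2AE and HIST3H2BB rose by 0.85 and 0.94. HIST2H2BE rose by 0.66, and HIST1H1C did not pass the test (0.15). Of 387 zinc finger genes named ZNF 22.5% rose and 15% fell, beside 15% and 7.57% of all genes, with a median of 0.021.

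Of 30 mitosis genes 0 rose and 10 fell, with a median of -0.11, and with median-ratio scaling 20 fell. Without DMSO replicate 1 or KB528 replicate 2 there were 6 lower, and without DMSO replicate 3 there were 2 higher. AURKA, a spindle kinase gene, went from 60.5, 56.5 and 57.6 to 46.6, 46.1 and 46.7 TPM and CCNB1, the gene of cyclin B1, from 242, 228 and 222 to 197, 193 and 195 TPM, and CENPA and KIF20A fell by 0.24 and 0.23. Of 34 replication genes 8 rose and 1 fell, with 13 higher without DMSO replicate 3. RRM2, a subunit of ribonucleotide reductase, went from 140.5, 128 and 156 to 205, 207 and 204 TPM and the origin licensing gene CDC6 from 106, 96.6 and 108 to 135, 139 and 134 TPM. GINS3 and SLBP rose by 0.32 and 0.27, and GINS1 fell by 0.14, a call lost in 4 of the 6 comparisons that left out a library.

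Of 33 ribosomal protein genes 5 fell and 0 rose, with a range from -0.21 to 0.029, and the count of lower genes ran from 0 (without DMSO replicate 1 or 2 or KB528 replicate 2 or 3) to 22 (without DMSO replicate 3). Of 35 nuclear genes of oxidative phosphorylation 6 fell, or 0 without DMSO replicate 1 or KB528 replicate 2 or 3, 2 without DMSO replicate 2, 3 without KB528 replicate 1 and 17 without DMSO replicate 3. Of 31 proteasome genes 1 fell (PSMA5, -0.20, lost without DMSO replicate 1 or KB528 replicate 3), and 8 fell and 1 rose without DMSO replicate 3. Each of these 3 counts of lower genes was at its highest without DMSO replicate 3. RPS28, the most abundant ribosomal gene named, was at 4695, 4816 and 4195 TPM in DMSO and 4222, 3858 and 3729 TPM at 1 h, and its groups overlapped.

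In sterol and fatty acid synthesis 6 of 22 rose and 1 fell (27.3% and 4.55%, beside 15% and 7.57% of all genes). Without DMSO replicate 3 there were 11 higher and 2 lower, and without DMSO replicate 1 or any 1 KB528 library 0 lower. HMGCS1, IDI1 and CYP51A1 rose by 0.29, 0.32 and 0.28. In glycolysis and hypoxia 6 of 25 rose and 3 fell. NDRG1 went from 36.1, 34.1 and 39.5 to 65.1, 65.4 and 64.9 TPM, ANKRD37 from 10.3, 9.86 and 7.94 to 16.3, 19.3 and 18.2 TPM, and PFKFB3 and HK2 rose by 0.52 and 0.48. ADM, the gene of adrenomedullin and a hypoxia marker, fell from 45.6, 41.9 and 46.1 to 31.3, 31.4 and 31.7 TPM, and EGLN3 by 0.25. Of 29 lysosome and autophagy genes 5 rose (17.2%, near the 15% of all genes) and 0 fell, with 10 higher without DMSO replicate 3. SQSTM1, the autophagy receptor gene, went from 247, 234 and 247 to 320.2, 322 and 324 TPM, and ATG16L1, ATG14 and ATG13 rose by 0.52, 0.50 and 0.22.

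The largest changes took several courses after 1 h. From 1 h to 3 h 15.2% of all genes rose and 31.8% fell. Of the 20 largest increases at 1 h 12 had fallen by 3 h, and 0 had risen further. ATF3 fell by 3.15 between these times (adjusted p = 2.4e-12) and BBC3 by 2.59, to below their DMSO libraries. Their levels at 3 h were not tested against DMSO. FOSB fell by 2.93, NR4A1 by 1.98, MDM2 by 1.70, CDKN1A by 1.5 and NFKBIA by 1.31. RRAD held its level at 3 h (-0.04, adjusted p = 0.761), with means of 24.7, 3.11 and 0.223 TPM at 3, 6 and 24 h. CDKN1A had means of 55.3, 9.30 and 4.10 TPM at those times, MDM2 of 19.4, 13.8 and 13.9 TPM, NFKBIA of 76.7, 52.1 and 28.8 TPM and FOSB of 3.28, 0.825 and 0.284 TPM. CDKN1A and FOSB thus ended below their DMSO means of 18.4 and 3.87 TPM.

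At 3, 6 and 24 h ATF3 had means of 7.07, 3.35 and 6.57 TPM, NR4A1 of 17.3, 8.31 and 7.89 TPM, BBC3 of 4.44, 2.29 and 7.39 TPM and FOSL1 of 15.3, 13.9 and 6.04 TPM. TNFRSF10B had 13.99, 5.44 and 9.11 TPM, AMIGO3 24.3, 10.9 and 5.23 TPM and RNF19B 30.5, 25.6 and 15.5 TPM. Of the 20 genes 16 still had all 3 libraries above DMSO at 3 h. This number was 11 at 6 h and 6 at 24 h, when 7 others had all 3 below DMSO. Among the small RNA genes of this group SNORD49A, SNORD11, MIR93, SNORA16A, MIRLET7D, SNORD37 and SNORA44 differed from 1 h by -0.06, -0.19, -0.40, 0.08, -0.71, -1.11 and -0.00 on the log2 scale. HEXIM1 rose by a further 0.86 from 1 h to 3 h, with means of 83.1, 59.3 and 16.99 TPM at 3, 6 and 24 h. RELB also rose further from 1 h to 3 h, by 1.07.

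Of the 20 largest decreases, 8 had turned back toward DMSO by 3 h and 9 had fallen further. TXNIP and DDIT4 rose by 1.25 and 1.24 from 1 h to 3 h, with means of 84.4, 186 and 142 TPM and 76.0, 164 and 155 TPM at 3, 6 and 24 h. CISH and SERTAD3 turned back too (0.64 and 0.43). FOS fell by a further 1.80, SSTR3 by 1.72, DUSP1 by 0.82, DUSP6 by 0.72 and NUAK2 by 0.54. Their means at 3, 6 and 24 h were 5.58, 2.07 and 0.9996 TPM for FOS, 6.14, 7.21 and 36.9 TPM for SSTR3, 16.9, 15.9 and 9.98 TPM for DUSP1, 2.12, 4.80 and 5.92 TPM for DUSP6 and 1.35, 5.92 and 3.94 TPM for NUAK2. RAB3A had means of 4.11, 6.90 and 8.42 TPM, ZNF217 of 4.18, 13.05 and 22.6 TPM, CISH of 8.38, 9.17 and 9.58 TPM and SERTAD3 of 4.04, 10.1 and 10.3 TPM. At 24 h 11 of the 20 had all 3 libraries below DMSO and 5 had all 3 above. CITED2 and DUSP5, of the abundant genes, fell by a further 1.90 and 1.86, and CITED2 had means of 37.7, 80.8 and 198 TPM. The 1 h libraries are shared by both comparisons, so a high or low 1 h value moves them in opposite directions.

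**Figure D5:**
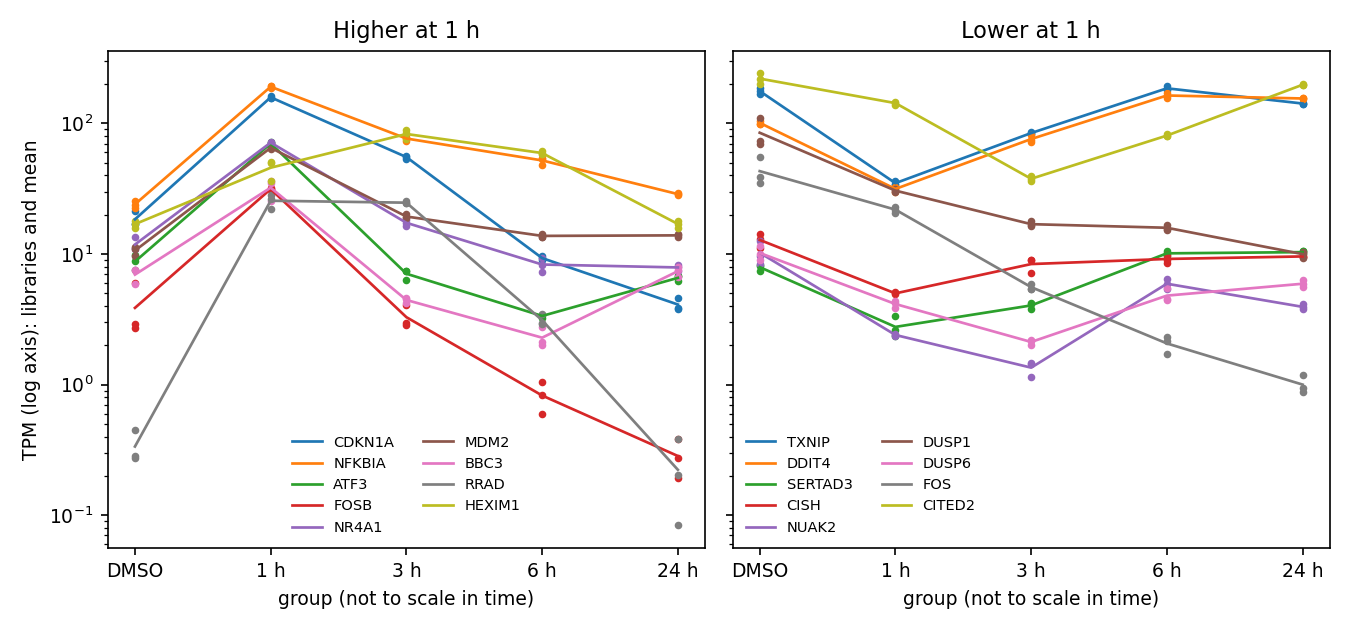
TPM on a log axis for 9 genes higher (left) and 9 lower (right) at 1 h, with each library as a point and a line through the group means from DMSO to 24 h of KB528; the groups are evenly spaced, not to scale in time. Most lines on the left peak at 1 h while HEXIM1 peaks at 3 h, and on the right TXNIP and DDIT4 turn upward after 1 h while FOS and DUSP1 go on falling.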

How the data were processed

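RNA of 15 libraries was sequenced as strand-specific mRNA libraries made with NEB kits, per the labels' protocols. The authors deposited 1 table of TPM values for 26364 genes and 92 ERCC spike-ins, each column summing to 1000000. The submitters' processing notes name STAR, featureCounts and the build hg19, without settings. TPM is not a count and total depth is not given, so count models were not used. Of 42680 low values 90.3% were whole reads within 0.05 reads, with transcript lengths from GENCODE. The table calls the DMSO columns No treatment, 0 h, and they were matched by time and number.

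Genes of at least 1 TPM were fitted with limma 3.58.1 (variance trend) under R 4.3.3 on log2(TPM + 1), all 15 libraries and 5 groups in 1 fit, with Benjamini-Hochberg adjustment over 12002 genes. Spike-in rows stayed out. Simulated data with 50 genes per fold gave back 38 at 1.25-fold and 50 at 1.5-fold, with 5.05% false among 198 calls. The simulated spread was independent between genes and held no shift shared by the genes of a library. These rates therefore do not carry over to the real calls, whose number moved when single libraries were left out. The members and the 56 lists were chosen with earlier results of these data known.

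Named are the 20 largest changes in each direction (mean of at least 5 TPM, groups apart), the 8 largest of at least 100 TPM, up to 4 members per list and direction with the smallest adjusted p, lists of up to 6 genes whole, the 6 largest changes of long non-coding RNAs in each direction, genes crossing from under 1 to over 3 TPM, and 15 regulators. Some further list members, and KLHL15, NXF1, MIR25, MIR106B and MCM7, were named after their values were seen. Tables and figures were made with Python 3.11.15, pandas 2.3.3, numpy 2.4.6 and matplotlib 3.10.9. Alternatives were a pseudocount of 0.1, filters of 5 TPM and none, other scalings, a length correction, no variance trend, a replicate block, no small RNA genes, only the 6 libraries, and leaving out each library. A few named genes are not reported here.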

Additional observations from a re-analysis of the deposited data

Results flagged for a closer look

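For 2 of the 20 largest increases all 3 libraries lay above DMSO at 1 h and below it at 3 h. The same fit tested only the fall from 1 h to 3 h, and the 3 h level against DMSO was not tested. ATF3 was higher than DMSO in all 3 libraries at 1 h and lower in all 3 at 3 h, with a log2 difference from 1 h to 3 h of -3.15 (adjusted p = 2.4e-12 in limma). BBC3 did the same, with a difference of -2.59 (adjusted p = 4.76e-10).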

How the results depend on the processing

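Of 288 named genes 268 were called. Of these, 214 were tested under all 17 alternatives, and 54 had no value under at least 1 of the 5 TPM filter, the length correction and the fit without small RNA genes. Of the 214, 151 were called in the same direction under each alternative except spike-in scaling and 72 under all 17. Of the 40 largest changes 28 were tested under all 17 and all 28 were called under each, and 11 of the other 12 were called wherever tested, the exception being SNORD37. With only the 6 compared libraries 1187 genes were higher and 536 lower, and with spike-in scaling 348 and 123. The lower count was 1670 after length correction and 1779 with median-ratio scaling, which shifted all genes by -0.052. Leaving out 1 library gave 1042 to 2898 higher and 531 to 1022 lower genes. With a replicate block there were 1982 higher and 944 lower genes. Same-numbered libraries deviated with correlations of -0.097, 0.0096 and 0.029, and differently numbered ones with correlations from -0.12 to 0.14. With 3 libraries a group these values cannot show whether the numbers pair the samples. The causes of these moves were not tested.

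Signs turned only for genes that passed the test neither way. Over the 6 fits that each left out 1 library, the log2 difference ran from -0.18 to 0.021 for BRD3, from -0.084 to 0.024 for CD14, from -0.087 to 0.062 for CD8A, from -0.088 to 0.10 for HBA1, from -0.13 to 0.066 for IKZF1, from -0.072 to 0.062 for KRT8, from -0.049 to 0.079 for MEF2C and from -0.080 to 0.019 for SDC1. With median-ratio scaling HBA1 was at -0.046, KRT18 at -0.0035 and MEF2C at -0.014, and with spike-in scaling at -0.049, -0.0078 and -0.019. After length correction IKZF3 was at -0.029 and MEF2C at -0.075.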
